A study of Mus musculus with 6 samples.

Results

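The Rab family of small GTPases was examined in colonic epithelial cells of mice re-fed after a fast, without or with antibiotics. The members were chosen by symbol, as all genes called Rab followed by a number, and 59 such genes were found among the 19938 genes with a probe set of their own on the array. A gene with several probe sets was represented by the one selected on the highest mean over all 6 arrays, so its level was used in that choice and its difference between the groups was not. By role, 24 members act in secretion, 9 in recycling and 19 on endosomes and lysosomes, and 7 have other roles.

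The animals of both groups were wild-type male BALB/c mice aged 6 weeks, all starved for 36 h and then re-fed for 24 h. In 1 group no further treatment was given, and in the other the mice received antibiotics, whose names the labels do not give, while they were re-fed. Epithelial cells positive for EpCAM, an adhesion molecule of epithelia, and negative for CD45, a surface marker of blood-derived cells, were sorted from the colon by flow cytometry. Each group holds 3 samples called biological replicates, and the labels do not say how many mice each holds, so p-values measure the spread between these samples alone. The untreated group is called re-fed and the other the antibiotics group. Mice that were not fasted, or not re-fed, were not analysed here, so the comparison addresses the antibiotics alone, in mice that had all been fasted and re-fed.

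A Rab protein switches between a form bound to GTP, which sits on a membrane and recruits effectors, and a form bound to GDP, which can be lifted off it. Exchange factors turn it on, GTPase-activating proteins turn it off, a prenyl tail added by geranylgeranyl transferase anchors it, and each Rab marks a compartment or a step between compartments. In the colonic epithelium these steps carry mucin granules of goblet cells to the surface, deliver transporters and enzymes to the apical brush border, and recycle or degrade what is taken up.

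Of the 6 arrays, 4 look as if they had been normalised together, since any pair of them has between 372 and 435 exact values in common. They are replicates 2 and 3 of the re-fed group with replicates 1 and 2 of the antibiotics group, and they are referred to as the common run. The remaining re-fed array has 154 to 198 values in common with each of them, and the remaining antibiotics array has 42 to 67 in common with any other. That antibiotics array, replicate 3, holds 10829 distinct values, while the other arrays hold 34568 to 34596. Its counts of shared values are therefore not comparable with theirs, and it is part of all results over 6 arrays. The grouping of 4 arrays was read from the values and not from a label. Results are given for the 6 arrays and for the 4 arrays of the common run. The 12 epithelial markers examined, with Epcam among them, all lay above the floor set for dim probe sets, which was a mean of 5.81 on the log2 scale. Their summed signal was 15.89 to 15.92 (log2) in re-fed and 15.71 to 15.84 in antibiotics arrays, so that it was slightly lower with antibiotics and the groups did not overlap. Of 11 lymphoid markers 1 lay above the floor and of 9 myeloid markers 2 did, and Ptprc, which encodes CD45, lay below it on all 6 arrays, at 5.30 to 5.54. Of 11 stromal markers 6 lay above the floor, with summed signals of 9.41 to 9.55 in re-fed and 9.48 to 9.61 in antibiotics arrays. Because sorted cells of several types were measured in bulk, fewer cells of a type and less RNA per cell cannot be told apart.

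Values below are log2 expression after quantile normalisation, and a difference is the antibiotics mean minus the re-fed mean, so a negative number is a lower value with antibiotics. Of the 59 Rab genes, 48 had a mean above the floor and were tested with limma among 12071 genes. Standard errors and p-values from limma use a variance for each gene that is drawn toward a value shared by all genes tested. None of the 48 passed an adjusted p of 0.05, where 7 of all genes tested (0.058%) did. At an unadjusted p under 0.05, 6 Rab genes were lower with antibiotics (Rab12, Rab27a, Rab3b, Rab11a, Rab31 and Rab8b), or 12.5%, beside 7.32% of all genes, and 0 were higher, beside 5.3% of all genes. Without re-fed replicate 3 the 6 became 3, beside 5.1% of all genes lower in that setting. In 9 Rab genes (18.75%), namely Rab1a, Rab8b, Rab9, Rab10, Rab11a, Rab12, Rab21, Rab22a and Rab32, every antibiotics array lay below every re-fed array, beside 10.7% of all genes, and in 0 every antibiotics array lay above, beside 8.88% of all genes.

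Most Rab differences were small and below 0. They were negative for 35 of 48 Rab genes (72.9%) and for 5947 of 12071 genes in all (49.3%), and the median was -0.075 for the Rab genes and 0.0033 for all genes. The size of the differences was like that of other genes: 40 of 48 Rab genes (83.3%) and 81.6% of all genes lay within 0.25 of 0, and the median size was 0.116 for the Rab genes and 0.121 for all genes. On the scale as deposited the median of all genes was itself -0.12, and 42 of 48 Rab genes were below 0. Relative to the median of all genes on the same scale, 36 of 48 Rab genes were lower there and 35 of 48 after quantile normalisation. Within the common run none of the 48 passed an adjusted p of 0.05, where 54 of all genes (0.447%) did, and the lowest adjusted p of a Rab gene was 0.0711. There 9 Rab genes (18.8%) were lower at an unadjusted p under 0.05, beside 9.25% of all genes, and 0 were higher, beside 8.13% of all genes. Of the 48, 41 of 48 kept the sign they had over 6 arrays.

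**Figure D1:**
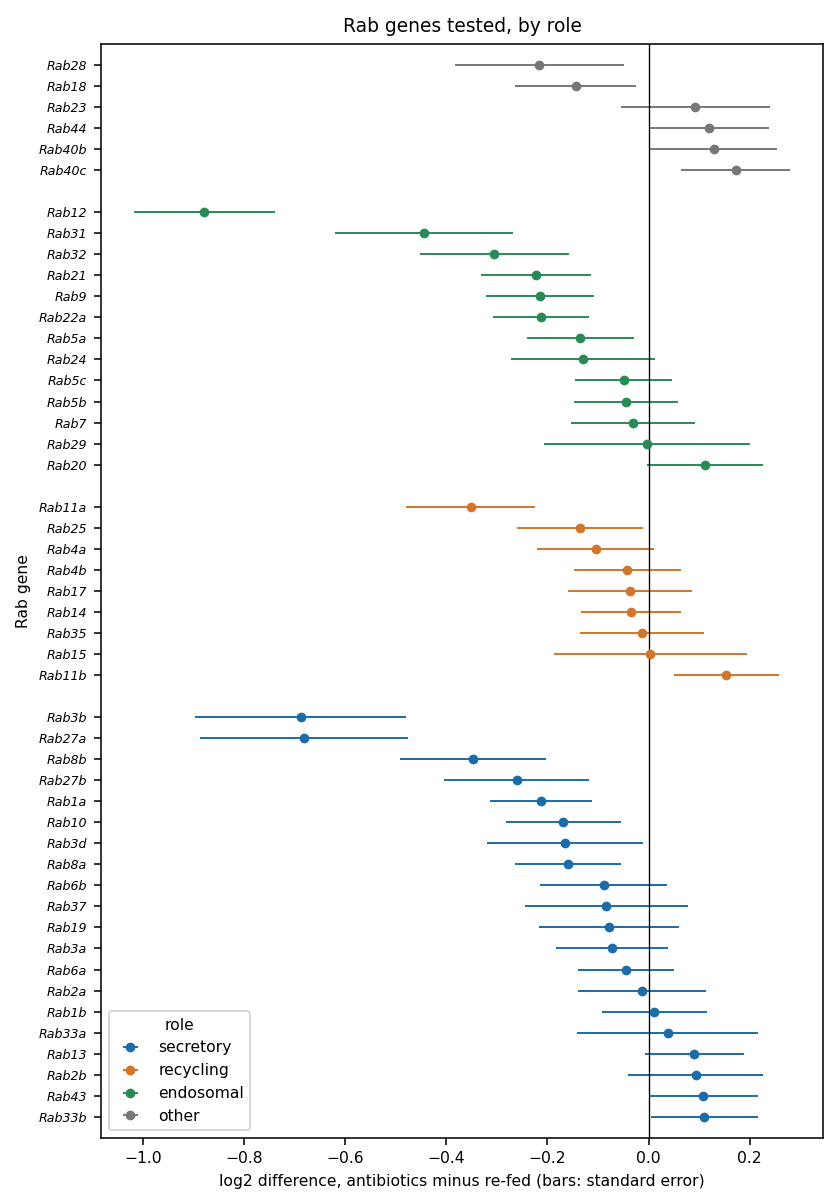
Difference in log2 expression (antibiotics minus re-fed, horizontal axis) for each of the 48 Rab genes tested, grouped by role and coloured by it; points are differences over 6 arrays and bars are standard errors. The points run from -0.88 for Rab12 to 0.17 for Rab40c, 35 of 48 lie left of 0, and 12 of the 13 endosomal genes do.

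By role, the exocytic and the endosomal members had mostly negative differences and those of the endoplasmic reticulum and Golgi lay around 0. Among secretory Rabs 14 of 20 tested were below 0, with a median of -0.081 and a range of -0.69 to 0.11. The exocytic members had a median of -0.17 with 9 of 10 below 0, and the members of the endoplasmic reticulum and Golgi had a median of -0.00066 with 5 of 10 below 0. Recycling Rabs had a median of -0.036 with 7 of 9 below 0 (-0.088 without re-fed replicate 2), and endosomal Rabs a median of -0.14 with 12 of 13 below 0. The 6 members with other roles had a median of 0.11, with 2 below 0 (0.049 without re-fed replicate 1). Within the common run the medians were -0.28 for exocytic, 0.033 for endoplasmic reticulum and Golgi, -0.040 for recycling, -0.11 for endosomal and 0.074 for other members. No test compared one role with another.

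The sequence before the transcription start is shown for the 3 Rab genes with the largest differences, Rab12, Rab27a and Rab3b, and for the closely related pair Rab11a and Rab11b, whose differences had opposite signs. These genes were picked after their values were seen. Each run is the 150 bases before a start in RefSeq's annotation of GRCm38.p6, 5′ to 3′ on the gene's strand, and Rab27a has 2 annotated starts. Capitals mark matches, on either strand, to the GC box GGGCGG (or CCGCCC), the CCAAT box (CCAAT or ATTGG) and the TATA box TATAAA.
Rab12, chr17:66519671-66519820, minus strand: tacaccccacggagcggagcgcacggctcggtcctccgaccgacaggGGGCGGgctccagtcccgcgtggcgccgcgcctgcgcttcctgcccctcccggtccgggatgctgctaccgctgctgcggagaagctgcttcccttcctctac
Rab27a start 1, chr9:73044660-73044809, plus strand: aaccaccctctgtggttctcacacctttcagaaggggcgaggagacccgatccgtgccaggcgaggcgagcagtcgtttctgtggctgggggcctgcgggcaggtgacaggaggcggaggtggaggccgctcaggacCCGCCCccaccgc
Rab27a start 2, chr9:73063998-73064147, plus strand: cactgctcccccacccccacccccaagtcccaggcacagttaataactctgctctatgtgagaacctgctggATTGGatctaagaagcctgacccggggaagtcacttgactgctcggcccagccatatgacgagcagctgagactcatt
Rab3b, chr4:108878920-108879069, plus strand: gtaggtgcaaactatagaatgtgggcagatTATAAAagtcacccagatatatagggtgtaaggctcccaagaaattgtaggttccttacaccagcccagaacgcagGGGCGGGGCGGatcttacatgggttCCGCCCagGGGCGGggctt
Rab11a, chr9:64737757-64737906, minus strand: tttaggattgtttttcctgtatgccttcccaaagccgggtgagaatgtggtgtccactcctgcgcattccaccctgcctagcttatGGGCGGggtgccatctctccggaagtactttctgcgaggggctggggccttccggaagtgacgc
Rab11b, chr17:33760487-33760636, minus strand: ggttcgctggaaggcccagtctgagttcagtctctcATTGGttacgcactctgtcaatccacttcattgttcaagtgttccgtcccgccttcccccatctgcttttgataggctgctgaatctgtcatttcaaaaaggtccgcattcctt

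The Rab12 window is rich in G and C (72.67%) and holds 1 GC box, 103 bases before the start. The first Rab27a window holds 1 GC box 13 bases before the start, and the second holds 1 CCAAT box at 78. Rab3b has 4 GC boxes, 2 of which overlap each other, and 1 TATA box 120 bases before the start. The 2 paralogs differ in these letters: Rab11a holds 1 GC box and no CCAAT box, and Rab11b holds 1 CCAAT box and no GC box. The same search covered 60 windows of 48 Rab genes and 32851 windows in all, each counted once whatever its number of matches. These Rab genes were picked by symbol among the windows, without regard to which Rab genes were tested on the arrays. Any Rab windows on 1 chromosome were left out, while the windows in all include that chromosome. GC boxes were in 58.33% of Rab windows and 28.62% of all windows, and CCAAT boxes in 25% and 24.5%. TATA boxes were in 3.333% and 7.574%. The median G and C content was 64% in Rab windows and 54% in all windows, and a GC box is made of these bases alone. The E-box CACGTG was in 5% of Rab windows and 4.295% of all, and the cAMP response element TGACGTCA in 3.333% and 1.361%. The D-box TTATGTAA was in 0 Rab windows and in 0.4992% of all windows. These matches describe letters and not binding.

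Among the Rabs of regulated secretion, Rab27a and Rab3b had the largest differences. Rab27a, which docks secretory granules and lysosome-related organelles at the plasma membrane, read 8.69, 9.22 and 9.57 on re-fed replicates 1 to 3 and 8.71, 8.31 and 8.41 on antibiotics replicates 1 to 3. Re-fed replicates 2 and 3 were high, while re-fed replicate 1 lay just under antibiotics replicate 1, so the groups overlapped. The means were 9.16 ± 0.44 and 8.48 ± 0.21 (SD, n = 3 each), a difference of -0.68 (SE 0.21, adjusted p = 0.255), or 1.61-fold lower with antibiotics. Within the common run the difference was -0.88 (adjusted p = 0.0766).

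Rab3b, a Rab of synaptic-like and secretory vesicles that is also found in epithelia, falls outside the rule for named genes and is given because it passed an unadjusted p of 0.05. Its values were 7.44, 8.09 and 8.22 on re-fed arrays and 7.54, 7.09 and 7.06 on antibiotics arrays. The order of the arrays resembled that of Rab27a, with re-fed replicate 1 low among the re-fed arrays and antibiotics replicate 1 high among the treated ones. The difference was -0.69 (SE 0.21, adjusted p = 0.256), and -0.84 within the common run (adjusted p = 0.0728).

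Markers of secretory and tuft cells varied among the same arrays. The summed signal of 9 goblet cell markers was 15.55, 15.75 and 15.71 (log2) on re-fed replicates 1 to 3 and 15.58, 15.40 and 15.59 on antibiotics replicates 1 to 3. Of these 9 markers 8 were below 0 in the comparison of groups, beside 11 of 12 epithelial markers and 49.3% of all genes. The summed signal of 7 tuft cell markers, of which 5 lay above the floor, was 9.13, 9.36 and 9.45, then 9.24, 9.18 and 9.13. Both sums were lowest among re-fed arrays in replicate 1, the array on which Rab27a and Rab3b were low. The tuft cell kinase Dclk1 read 6.23 there, against 7.20 and 7.23 on the other re-fed arrays and 6.70 to 6.74 on the antibiotics arrays. The other tuft markers above the floor were mixed. Trpm5 (6.09 against 6.76 and 6.64) and Avil (6.42 against 6.67 and 6.80) were also lowest on re-fed replicate 1 among re-fed arrays. Gfi1b was highest on that array (7.14 against 6.69 and 6.98), and Sh2d6 lay between (6.52 against 6.37 and 6.71). The sum of 10 enteroendocrine markers, of which 7 lay above the floor, went the other way among re-fed arrays. It was 10.73, 10.57 and 10.36 on re-fed replicates 1 to 3, highest in replicate 1. On antibiotics replicates 1 to 3 it was 10.49, 9.95 and 11.06. Single enteroendocrine markers above the floor were mixed. Pyy (9.07 against 8.57 and 8.19), Insl5, Chga and Pcsk1n were highest on re-fed replicate 1 among re-fed arrays. Tph1 (6.87 against 6.94 and 7.07) and Chgb (6.98 against 7.09 and 7.17) were lowest there, and Gcg lay between (6.72 against 7.05 and 6.45). The part of cell composition in the Rab27a and Rab3b differences was not tested.

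**Figure D2:**
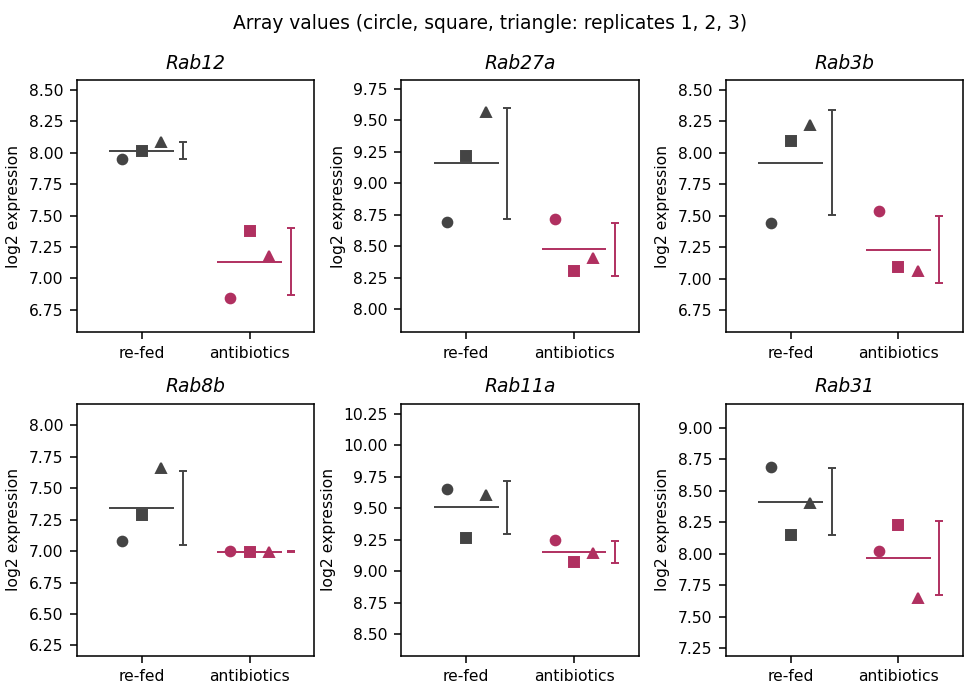
Log2 expression (vertical axis, each panel spanning the same range of 2 log2 units) of the 6 Rab genes lower at an unadjusted p under 0.05, on each re-fed and each antibiotics array; circles, squares and triangles are replicates 1, 2 and 3, horizontal lines are means and side bars are 1 SD. Rab12, Rab8b and Rab11a show groups that do not overlap, and in Rab27a, Rab3b and Rab31 an array of one group lies within the range of the other.

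The other members of regulated secretion differed less. Rab27b, the close relative of Rab27a that acts on the same granules, read 7.90, 8.07 and 8.16 without antibiotics and 7.66, 7.61 and 8.08 with them. Antibiotics replicate 3 lay within the re-fed range, and the difference was -0.26 (SE 0.14, adjusted p = 0.482), or -0.48 within the common run (adjusted p = 0.0923), which leaves that array out. Rab3d, found on zymogen and mucin granules, read 9.23, 9.40 and 9.17, then 9.27, 8.75 and 9.28. A single low array, antibiotics replicate 2, set its difference of -0.17 (SE 0.15, adjusted p = 0.686), which was 0.0079 without that array. Rab37, of secretory granules in mast cells and other cells, read 6.28, 6.90 and 6.78, then 6.67, 6.44 and 6.61, with the lowest value on re-fed replicate 1. Its difference was -0.084 (SE 0.16, adjusted p = 0.866), -0.29 within the common run, -0.27 without re-fed replicate 1 and 0.040 without re-fed replicate 2. Rab26, which marks granules of acinar and other secretory cells, lay below the floor and was not tested, at 5.93, 5.30 and 5.63, then 5.50, 5.51 and 6.02. Rab3a, the vesicle Rab of neurons and endocrine cells, was tested at a mean of 6.19 and differed by -0.072, and its relative Rab3c lay below the floor.

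Of the Rabs of constitutive and apical exocytosis, Rab8a, Rab8b and Rab10 had negative differences, none past the adjusted threshold. Rab8b, which like Rab8a carries vesicles from the trans-Golgi network to the cell surface, read 7.08, 7.29 and 7.66 in re-fed and 7.002, 6.991 and 6.994 in antibiotics arrays. The 3 antibiotics arrays were nearly equal and lay below all re-fed arrays, of which replicate 3 stood highest. The difference was -0.35 (SE 0.14, adjusted p = 0.369), -0.48 within the common run (adjusted p = 0.156) and -0.19 without re-fed replicate 3 (adjusted p = 0.675). Rab8a, needed for apical delivery of brush border proteins, read 10.91, 10.70 and 10.88, then 10.65, 10.63 and 10.73, a difference of -0.16 (adjusted p = 0.562) with overlap between re-fed replicate 2 and antibiotics replicate 3. Rab10, which serves basolateral and transporter-carrying vesicles, read 11.25, 11.30 and 11.39, then 11.23, 11.24 and 10.96. Its groups did not overlap, yet the nearest arrays were close. Antibiotics replicate 3 stood lowest, and the difference was -0.17 (SE 0.11, adjusted p = 0.570) over 6 arrays and -0.11 within the common run. Rab13, a Rab of tight junction traffic, was the exocytic member tested with a positive difference, 0.091.

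Among the Rabs of the endoplasmic reticulum and Golgi, Rab1a stood apart from its paralog. Rab1a, required for traffic from the endoplasmic reticulum to the Golgi, read 11.56, 11.43 and 11.52 without antibiotics and 11.26, 11.22 and 11.38 with them. All antibiotics arrays lay below all re-fed arrays, with a difference of -0.21 (SE 0.10, adjusted p = 0.423) and of -0.23 within the common run. Rab1b, which acts at the same step and is outside the rule for named genes, differed by 0.011 (adjusted p = 0.978), a sign that turned under other scalings. Rab2a and Rab2b, of the intermediate compartment between the endoplasmic reticulum and Golgi, differed by -0.013 and 0.093. Rab6a and Rab6b, of traffic within and out of the Golgi, differed by -0.045 and -0.089. Rab19, Rab33a, Rab33b and Rab43, also placed at the Golgi, differed by -0.078, 0.038, 0.11 and 0.11. Rab30 and Rab36 lay below the floor.

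Of the recycling Rabs, Rab11a was the member lower at an unadjusted p under 0.05. Rab11a, the Rab of the recycling endosome beneath the apical membrane, read 9.65, 9.26 and 9.61 in re-fed and 9.25, 9.07 and 9.15 in antibiotics arrays. Re-fed replicates 1 and 3 were high and re-fed replicate 2 lay just above the highest antibiotics array, so the groups did not overlap. The means were 9.51 ± 0.21 and 9.15 ± 0.088 (SD, n = 3 each), with a difference of -0.35 (SE 0.13, adjusted p = 0.310) and of -0.28 within the common run (adjusted p = 0.349). Rab25, the epithelial relative of Rab11a, read 11.38, 11.15 and 11.05, then 11.13, 10.90 and 11.15, a difference of -0.13 (adjusted p = 0.685), of -0.041 without re-fed replicate 1 and of -0.054 without antibiotics replicate 2. Rab17, an epithelial Rab of transcytosis, read 8.57, 8.22 and 8.37, then 8.37, 8.46 and 8.22. Its arrays were interleaved, and the difference was -0.036 over 6 arrays (adjusted p = 0.927) and 0.12 within the common run. Rab4a and Rab4b, of fast recycling from early endosomes, differed by -0.10 and -0.042. Rab14, Rab35 and Rab15, which act between endosomes, the Golgi and the surface, differed by -0.034, -0.013 and 0.0036.

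Rab11b, the ubiquitous paralog of Rab11a, had the highest difference of the recycling group. It read 10.78, 10.87 and 11.03 in re-fed and 11.04, 11.03 and 11.07 in antibiotics arrays, a difference of 0.15 (SE 0.10, adjusted p = 0.574). Re-fed replicates 1 and 2 were low and re-fed replicate 3 reached the lowest antibiotics array. Rab11b has another probe set with a much lower signal, which read 6.51, 6.64 and 6.59, then 6.31, 6.71 and 6.24, and gave -0.16. The 2 probe sets of Rab11b thus disagreed in sign, while those of Rab2a gave -0.013 and -0.060 and those of Rab5b gave -0.044 and -0.099.

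Pairs of Rab genes that share a number were then compared within each array, a comparison added after the values were seen. The gap between 2 probe sets is no ratio of RNA amounts, but its change between groups does not depend on a shift that all probe sets of an array share. Rab11a minus Rab11b was -1.13, -1.60 and -1.43 on re-fed arrays and -1.80, -1.96 and -1.92 on antibiotics arrays. The groups did not overlap, and the gap moved by -0.51 over 6 arrays, by -0.53 on the deposited scale and by -0.36 within the common run. With the other probe set of Rab11b the gap was 3.14, 2.63 and 3.01, then 2.93, 2.36 and 2.91, so the groups overlapped and the shift was -0.19 (two-sided exact permutation p = 0.5). The separation of this pair thus holds for the brighter of the 2 probe sets alone. Rab1a minus Rab1b was 0.46, 0.56 and 0.52 on re-fed and 0.23, 0.27 and 0.37 on antibiotics arrays, a shift of -0.22, also without overlap. Of 15 pairs these 2 reached a two-sided exact permutation p of 0.1, the smallest that 3 arrays against 3 allow, and the lowest value adjusted over the 15 pairs was 0.75. A p under 0.05 was therefore out of reach for each pair. Taken singly, 19.6% of all genes tested had groups that did not overlap, counting both directions, and 2 of 15 separated pairs is no higher share. That share is for single genes and not for gaps, and the share among gaps of other gene pairs was not computed. Other gaps with larger or like shifts overlapped between groups: Rab3a minus Rab3b moved by 0.62, Rab3b minus Rab3d by -0.52 and Rab27a minus Rab27b by -0.42. The gap between Rab5b and Rab5c, both early endosome Rabs, moved by 0.0051.

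**Figure D3:**
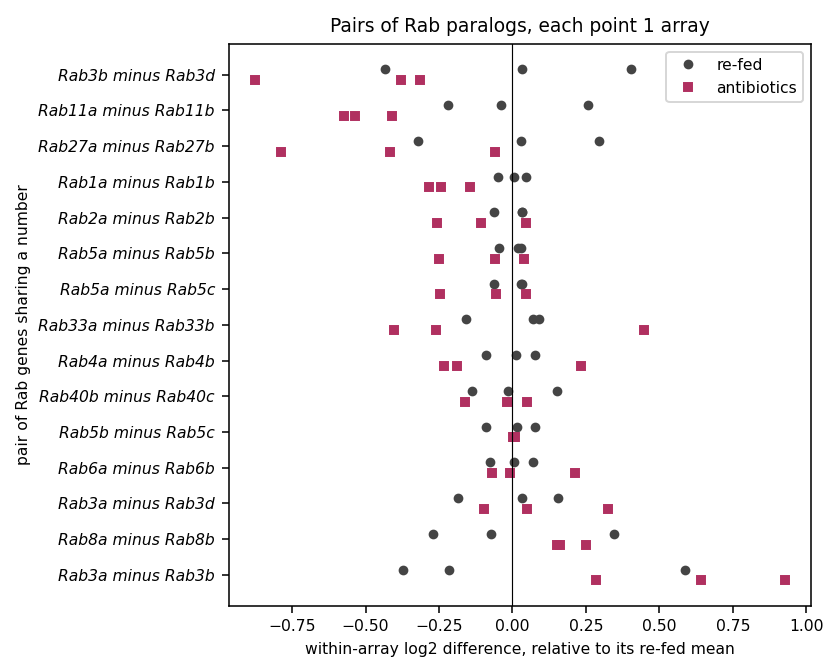
Within-array log2 difference between 2 Rab genes that share a number (horizontal axis, minus the mean of that difference over the re-fed arrays) for 15 pairs; circles are the 3 re-fed arrays and squares the 3 antibiotics arrays. Rab11a minus Rab11b and Rab1a minus Rab1b are the 2 pairs whose squares all lie left of their circles.

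Endosomal and lysosomal Rabs held the largest single difference of the family, that of Rab12. Rab12, which directs the transferrin receptor from recycling endosomes to lysosomes and is a substrate of the kinase LRRK2, read 7.95, 8.01 and 8.08 on re-fed arrays and 6.85, 7.38 and 7.18 on antibiotics arrays. The re-fed arrays were tightly grouped and all 3 antibiotics arrays lay well below them. The means were 8.01 ± 0.068 and 7.13 ± 0.27 (SD, n = 3 each), a difference of -0.88 (SE 0.14), or 1.84-fold lower with antibiotics.

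By unadjusted p Rab12 ranked 19 among the 12071 genes tested, and its adjusted p was 0.0692. Within the common run the difference was -0.93 (adjusted p = 0.0711). Other settings moved Rab12 across the threshold: its adjusted p was 0.0385 on the deposited scale, 0.0253 after median centring, 0.0377 with a stricter filter on dim probe sets and 0.00267 with weights for each array, a setting under which 1169 of all genes passed. With no filter it was 0.165. Leaving out each array in turn gave differences of -1.002 to -0.737 and adjusted p of 0.0695 to 0.300. The direction was the same under each of these settings, and its side of the threshold was not.

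Of the 7 early endosome Rabs 6 had negative differences, none past the adjusted threshold. Rab31, of traffic between the trans-Golgi network and early endosomes, is outside the rule for named genes and read 8.69, 8.15 and 8.41, then 8.03, 8.23 and 7.65. The groups overlapped, and the difference of -0.44 (SE 0.18, adjusted p = 0.353) was -0.15 within the common run (adjusted p = 0.580), which leaves out the highest and the lowest of these arrays. Rab22a, of early endosome fusion and recycling, read 9.47, 9.46 and 9.45 in re-fed and 9.21, 9.31 and 9.23 in antibiotics arrays. Its groups were tight and apart, at a difference of -0.21 (SE 0.095, adjusted p = 0.398). Rab21, which carries integrins through early endosomes, read 10.07, 10.30 and 10.14, then 9.84, 10.00 and 10.00, also without overlap, a difference of -0.22 (SE 0.11, adjusted p = 0.436) and of -0.30 within the common run. Rab5a, the organiser of early endosome fusion, read 9.32, 9.38 and 9.46, then 9.25, 9.36 and 9.13, a difference of -0.14 (adjusted p = 0.627) with overlap. Its paralogs Rab5b and Rab5c differed by -0.044 and -0.049, and Rab20, of early endosomes and phagosomes, by 0.11.

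All 6 late endosome and lysosome Rabs tested had negative differences over 6 arrays, none past the adjusted threshold, and 4 of the 6 did within the common run. Rab7, the main Rab of fusion with lysosomes, read 10.21, 9.88 and 9.90, then 10.08, 9.86 and 9.96, so its arrays were interleaved at a difference of -0.031 (adjusted p = 0.941) and of 0.078 within the common run. Rab9, which returns mannose 6-phosphate receptors to the Golgi, read 8.36, 8.35 and 8.46, then 8.19, 8.05 and 8.29, with no overlap and a difference of -0.22 (SE 0.11, adjusted p = 0.442). Rab32, of lysosome-related organelles and mitochondria, read 8.10, 7.58 and 7.63, then 7.56, 7.36 and 7.47. Re-fed replicate 1 stood high and the other 2 re-fed arrays lay just above the highest antibiotics array, so the difference of -0.30 (SE 0.15, adjusted p = 0.432) was -0.14 within the common run. Rab24, of autophagy, and Rab29, of lysosomes and the trans-Golgi network, differed by -0.13 and -0.0030, and by 0.079 and -0.049 within the common run.

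**Figure D4:**
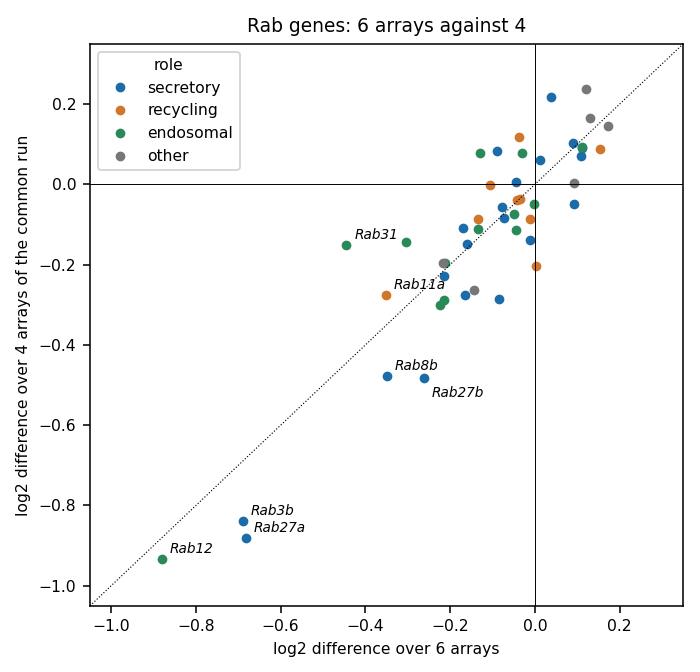
Difference in log2 expression (antibiotics minus re-fed) of each of the 48 Rab genes tested, over 6 arrays (horizontal axis) and over the 4 arrays of the common run (vertical axis), coloured by role; the dotted line marks equal values. Rab12, Rab27a and Rab3b lie lowest on both axes, Rab31 lies well above the line at -0.44 and -0.15, and 41 of 48 genes have the same sign on both. The 4 arrays are among the 6, so the axes are not independent.

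The members with other roles had 4 positive and 2 negative differences. Rab18, of lipid droplets, and Rab28, of cilia and photoreceptors, differed by -0.14 and -0.22. Rab23, an inhibitor of hedgehog signalling, Rab44, a large Rab of granules in blood cells, and Rab40b and Rab40c, which join ubiquitin ligases, differed by 0.092, 0.12, 0.13 and 0.17. Rab34, of macropinosomes and cilia, lay below the floor.

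In all 11 Rab genes lay below the floor: Rab3c, Rab7b, Rab9b, Rab26, Rab30, Rab34, Rab36, Rab38, Rab39, Rab39b and Rab42. The tested members nearest the floor were Rab3a, Rab40b and Rab33a, with means over 6 arrays of 6.19, 6.00 and 5.92, and the nearest below it were Rab7b, Rab26 and Rab9b, at 5.80, 5.65 and 5.43. Of these 11, 3 had every antibiotics array below every re-fed array, beside 4% of the 7867 genes below the floor, and they are named after their values were seen. Rab7b, a Rab of traffic from endosomes to the trans-Golgi network, read 6.54, 6.06 and 5.74, then 5.55, 5.62 and 5.31, a difference of -0.62 (adjusted p = 0.455 when no gene was left out for a low signal). Rab42 and Rab30 differed by -0.45 (adjusted p = 0.593) and -0.33 (adjusted p = 0.508) in that fit.

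The proteins that load, switch and read Rabs were counted in 4 lists, with 128 of the 137 genes on the array tested. None passed an adjusted p of 0.05. At an unadjusted p under 0.05, 10 of 128 (7.81%) were lower, beside 7.32% of all genes, and 5 were higher, beside 5.3% of all genes, so both shares were near those of all genes. Of the 128, 83 (64.8%) were below 0, and the median was -0.058. The median was 0.012 for 7 genes of prenylation and extraction, -0.061 for 34 exchange factors, -0.048 for 36 GTPase-activating proteins and -0.080 for 51 effectors.

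In the prenylation and extraction list the smallest p-values belonged to genes with positive differences. Rabac1, a receptor for prenylated Rabs, was higher by 0.24 (SE 0.10, adjusted p = 0.384), Chml, a Rab escort protein, by 0.22 (adjusted p = 0.527; 0.096 without antibiotics replicate 3 and 0.051 within the common run) and Rabggta, the alpha subunit of geranylgeranyl transferase, by 0.17 (adjusted p = 0.560). Among exchange factors Rgp1, a subunit of the Rab6 exchange factor, differed by -0.29 (adjusted p = 0.287), Trappc5, a subunit of the TRAPP complexes that act on Rab1, by 0.32 (adjusted p = 0.330) and Dennd6a, which acts on Rab14, by -0.23 (adjusted p = 0.432). Of the 36 GTPase-activating proteins 3 (8.33%) were lower at an unadjusted p under 0.05, beside 7.32% of all genes, and 1 was higher, beside 5.3% of all genes. The 1 that was higher was Tbc1d9b, outside the rule for named genes, at 0.32 (adjusted p = 0.309). Tbc1d1, which acts on Rabs of glucose transporter vesicles such as Rab8a and Rab10, read 8.07, 8.14 and 8.26 on re-fed and 7.56, 7.70 and 7.66 on antibiotics arrays, without overlap, a difference of -0.52 (SE 0.10, adjusted p = 0.117). Tbc1d15, which acts on Rab7, and Tbc1d2b differed by -0.41 (adjusted p = 0.258) and -0.36 (adjusted p = 0.301).

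Among the effectors the smallest p-values were those of Ocrl, Rilp and Eea1. Ocrl, an inositol phosphatase that binds Rab5, Rab8 and other Rabs, read 8.44, 8.23 and 8.52 in re-fed and 7.85, 7.84 and 7.88 in antibiotics arrays. All antibiotics arrays were low and close together, at a difference of -0.54 (SE 0.11, adjusted p = 0.117). Of the 51 effectors 6 (11.8%) were lower at an unadjusted p under 0.05, beside 7.32% of all genes, and 2 were higher, beside 5.3% of all genes. In 8 (15.7%) every antibiotics array lay below the re-fed arrays, beside 10.7% of all genes. In 8 every antibiotics array lay above them, beside 8.88% of all genes. Rilp, which links Rab7 to dynein, was 1 of the 2 higher, with 7.48, 7.58 and 7.79 in re-fed and 7.97, 8.20 and 8.21 in antibiotics arrays, a difference of 0.51 (SE 0.12, adjusted p = 0.170). Eea1, the tether that Rab5 recruits to early endosomes, read 8.36, 8.73 and 8.88, then 8.14, 8.28 and 8.17, a difference of -0.46 (SE 0.14, adjusted p = 0.258) and of -0.59 within the common run (adjusted p = 0.0757). The groups of all 3 effectors did not overlap, and none of the 3 passed the adjusted threshold.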

How the data were processed

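Per the labels' protocols, 6 µg of total RNA was made into biotin-labelled cRNA for Affymetrix arrays. The authors used RMA, which corrects background, normalises and summarises probes, to make the deposited log2 values, which cover 35557 probe sets. The submitters' processing notes name RMA, and a version is not given in the sources used here. Array medians of the deposited values were 5.63 to 6.17, so the 23410 probe sets with a gene were quantile normalised. Each gene was represented by its probe set with the highest mean, a floor at the 40th percentile of means (5.81) removed dim genes, and limma 3.58.1 (R 4.3.3) tested the 2 groups, taken from the sample titles, two-sided with Benjamini-Hochberg adjustment over 12071 genes; the fit was tested on simulated data. All 59 Rab genes were matched by Entrez identifier to RefSeq, and 0 of their probe sets name another gene. The number of arrays limits the precision.

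The members and lists were chosen with earlier results of these data known. Values on every array are given for 14 Rab genes fixed by role. They are also given for up to 12 others with the smallest p whose groups do not overlap. Up to 3 genes per list of Rab regulators are named by p, of which Tbc1d1, Ocrl, Rilp and Eea1 have array values printed. Further genes are said to fall outside this rule. Alternatives changed the scaling, the filter, the probe set, array weights, a replicate block and the arrays used. The pairs of paralogs and the deposited scale within the common run were added after the values were seen.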

Additional observations from a re-analysis of the deposited data

How the results depend on the processing

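No Rab gene passed an adjusted p of 0.05 over 6 arrays, and 0 did in the common run or when any array was left out. The count was 1 (Rab12) on the deposited scale, 1 (Rab12) after median centring and 1 (Rab12) with the stricter filter, which tested 37 Rab genes; the counts over all genes rose from 7 to 45, 62 and 43 in that order. With array weights it was 5 (Rab12, Rab21, Rab27a, Rab27b and Rab3b), where 1169 of all genes passed. Rab genes lower at an unadjusted p under 0.05 numbered 13 of 48 after median centring, 11 with array weights and 11 on the deposited scale within the common run. Of all genes 14.4%, 14.6% and 13.6% were lower there. The fit reported above gave 6 of 48 and 7.32% over 6 arrays. Within the common run it gave 9 of 48 and 9.25%. The share of all genes thus rose as well. Lower Rab genes numbered 3 to 7 when each array was left out, beside 5% to 7.84% of all genes. On the deposited scale within the common run 2 Rab genes were higher, beside 7.79% of all genes. The replicate numbers did not pair the arrays: same-numbered arrays correlated at 0.021, -0.034 and -0.22 in their deviations from group means. With the replicate block 0 Rab genes passed, Rab12 had an adjusted p of 0.101 and 7 of all genes passed, as without it.

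The median over all Rab genes was -0.22 on the deposited scale, -0.19 after median centring, -0.13 with the stricter filter and -0.14 on the deposited scale within the common run; the median of all genes was -0.12, -0.080, -0.0076 and -0.027 in these settings. The secretory median was -0.16 on the deposited scale and -0.17 with the stricter filter. In the order deposited scale, median centring and deposited scale within the common run, the recycling median was -0.22, -0.19 and -0.14, the endosomal -0.33, -0.29 and -0.20, and the median of other roles 0.00070, 0.039 and 0.037; the last was 0.014 with the stricter filter. Leaving out each array gave medians of -0.088 to -0.034 for recycling, -0.20 to -0.14 for endosomal and 0.049 to 0.11 for other roles. Beyond the shift of all genes, the causes of these moves were not tested.

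Of 542 alternative values of 34 named genes, 507 kept direction and side of the threshold, 16 passed the threshold newly and 19 changed sign. Leaving out 1 array moved the value of 17 of these 34 genes by over 1.5 times. Rab17 was 0.052 with array weights, 0.12 in the common run, 0.0028 on the deposited scale there and -0.12 to 0.055 when each array was left out. Rab7 was 0.11 with array weights, 0.078 in the common run and -0.088 to 0.075 on leaving out arrays. On leaving out arrays Rab3d ranged from -0.26 to 0.0079, Rab37 from -0.27 to 0.040 and Rab1b from -0.049 to 0.067. Rab1b was -0.15 on the deposited scale, -0.11 after median centring, -0.0028 with quantile normalisation over all probe sets and -0.011 on the deposited scale within the common run. Rab11b was -0.011 on the deposited scale and -0.0037 with the mean of its probe sets. With 3 arrays a group, small differences among dim genes could not be resolved.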
